A study of Mus musculus with 18 samples.

Results

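The response to the Notch ligand DL1 was followed in cultured hematopoietic progenitors of irradiated mice, by comparing 3 irradiated cultures grown with DL1 with 3 irradiated cultures grown without it. All genes with a mean level of at least 1 FPKM over these 6 libraries were included, which gave 12028 of the 25629 genes listed for the cultures. FPKM is the number of sequenced fragments of a gene scaled to the length of its transcript and to the size of the library. Of the 12028 genes, 11990 were above 0 in all 6 libraries. The genes just inside the limit were Cited4 at a mean of 1.0007 and Zmat3 at 1.0018, and Rtl8c at 0.9973 was just outside. Because the limit was set on the mean of both groups, 180 genes entered with a mean under 1 FPKM without DL1 only and 166 with a mean under 1 with DL1 only. Of the 180 genes 130 rose and of the 166 genes 131 fell in the test described later, so their calls follow in part from the limit and are no support for a count. Among the genes counted in lists these are, on the rising side, Hes1, Tox, Gzmc, Gzma, Mycn, Slamf1 and Mx1, and on the falling side Mrc1, Fcrls, Arg1, Ccl2, Fosl1, Gata1, Gp9, Vwf, Hoxa10 and Il7r.

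The cells were LSK cells, the bone marrow fraction without markers of mature lineages that carries Kit and Sca1 and contains the stem cells and multipotent progenitors. All mice were C57Bl/6. The irradiated animals received 2.5 Gy from a cesium-137 source and were left to recover for at least 9 weeks. From each mouse 200 LSK cells were grown for 6 days with mouse stem cell factor, human Flt3 ligand, human interleukin-11 and human interleukin-6, sorted again as LSK cells, and used for RNA sequencing. Both irradiated groups and both groups from control mice (normal mice, without and with DL1) shared this strain, these cytokines and this second sort, and each group had 3 libraries of 1 mouse each. The labels give DL1 without spelling it out. It was read as Delta-like 1, and how it was offered to the cells is not given in the sources used here. They also do not say whether a culture with DL1 and a culture without it came from the same mouse.

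Notch receptors are cut when they bind a ligand of the Delta or Jagged type on a neighbouring surface. The freed intracellular part enters the nucleus, joins the DNA-binding protein RBPJ and switches on targets such as Hes1. In blood formation this pathway is best known for directing progenitors into the T cell lineage. C/EBPα, set against Notch in the title of the series, is the transcription factor that drives progenitors into the granulocyte and monocyte lineages.

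The 6 libraries summed to between 558281 and 576680 FPKM. Their sequencing depth relative to the first control library, estimated from the smallest values, lay between 0.774 and 1.053 except for irradiated replicate 2 with DL1, at 0.488. Correlations of log2(FPKM + 1) between libraries were 0.988 to 0.995 within the irradiated groups and 0.959 to 0.976 between them. The sort markers were present in all 6 libraries. Kit stood at 32.3, 37.0 and 37.2 FPKM without and 34.9, 31.6 and 36.4 with DL1, and Ly6a, which encodes Sca1, at 628, 498 and 522 without and 580, 601 and 593 with DL1. Neither differed past the threshold (limma, adjusted p = 0.621 and 0.350). The antibodies that defined lineage-negative cells are not named in the sources used here, but Itgam, which encodes the usual myeloid lineage marker CD11b, was expressed at 238, 183 and 145 FPKM without and 144, 137 and 118 FPKM with DL1.

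DL1 changed the level of a large part of the genes. Of the 12028 genes, 4987 (41.5%) passed an adjusted p of 0.05 in limma, 2923 (24.3%) higher and 2064 (17.2%) lower with DL1. The shares of 24.3 and 17.2% are the background for every count of a list that follows. Most differences were small. The median of all log2 fold changes was 0.060 and the median size 0.160, and only 150 genes (1.25%) rose and 295 (2.45%) fell by at least 1 on the log2 scale. All fold changes are on the scale of log2(FPKM + 1), which understates changes of weakly expressed genes. The extremes were Mcpt1 at 5.0 and Fn1 at -4.0. The balance of directions depended on the scaling between libraries: with median-ratio scaling, which moved the median to 0.009, 2020 genes rose and 2480 fell, so that the share of rises among the calls went from 58.6 to 44.9%. Fitted on the 6 irradiated libraries alone, 3564 genes passed, 1876 of them higher. In RNA pooled from the sorted cells of a culture, fewer cells of a type and less RNA per cell cannot be told apart, which holds for all results that follow.

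Notch receptors themselves did not rise with DL1. Notch1, the main receptor of early T cell development, was at 18.4, 15.6 and 13 FPKM without and 9.97, 10.3 and 9.81 FPKM with DL1. All 3 cultures with DL1 were below all 3 without, and the fall was 0.58 on the log2 scale (SE 0.0912, adjusted p = 0.000344). Notch2 was at 16.1, 13.8 and 11.6 without and 15.9, 14.3 and 14.3 with DL1, with overlapping groups (log2 fold change 0.10, adjusted p = 0.399). Notch3 was at most 0.185 FPKM and Notch4 at most 0.225 FPKM in the 6 libraries. Of the ligand genes of these cells, Jag2 alone reached the limit, at 1.19, 1.69 and 1.24 FPKM without and 1.63, 2.03 and 2.23 with DL1 (log2 fold change 0.32, adjusted p = 0.0274). That call was lost when irradiated replicate 1 or 3, or replicate 2 or 3 with DL1, was left out.

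The genes that mature and cut the receptor mostly fell. Of 15 genes for receptor glycosylation and cleavage, 11 fell, 4 did not pass and none rose, with a median log2 fold change of -0.28 against 0.060 for all genes tested. The 11 were Furin, Psen2, Adam10, Aph1c, Adam17, Poglut1, Aph1b, Lfng, Ncstn, Aph1a and Pofut1. Furin, the protease that makes the first cut of the receptor in the Golgi, fell from 40.9, 35.7 and 31.2 FPKM to 17.4, 17.6 and 17.5 FPKM, which is -0.99 on the log2 scale (SE 0.0887, adjusted p = 5.11e-06). Its groups were far apart and the values with DL1 nearly identical. Adam10, which makes the cut that ligand binding exposes, fell from 69.9, 67.0 and 64.5 to 51.0, 48.5 and 49.8 FPKM (log2 fold change -0.42, SE 0.0538). Psen2, a catalytic subunit of the γ-secretase that frees the intracellular part, fell from 23.4, 19.8 and 18.9 to 11.6, 12.2 and 12.6 FPKM (log2 fold change -0.72, SE 0.0745). Lfng, a sugar transferase that tunes the response to Delta-type ligands, fell from 21.2, 16.5 and 14.1 to 12.4, 10.8 and 10.4 FPKM (log2 fold change -0.57, SE 0.128).

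The nuclear partners changed little. Of 12 tested genes, 2 rose and 1 fell. Fbxw7, part of the ligase that marks the active Notch fragment for destruction, went from 4.39, 4.41 and 4.82 to 5.73, 5.52 and 5.93 FPKM (log2 fold change 0.28, adjusted p = 0.010). The other rise was the coactivator Maml3 (0.22) and the fall was Numb (-0.25), an inhibitor of Notch. The call of Maml3 was lost without irradiated replicate 2 or 3 or without replicate 1 or 3 with DL1, and that of Numb without irradiated replicate 1 or 2 or without replicate 2 or 3 with DL1. Rbpj, named here after its values were seen, was at 29.3, 26.0 and 23.7 without and 26.4, 23.4 and 22.8 FPKM with DL1, with overlapping groups (adjusted p = 0.251).

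Target genes of Notch split into those that rose and those that fell. Of 21 listed targets 10 reached the limit. Of these 4 rose and 3 fell, against 24.3 and 17.2% of all genes tested, and 3 did not pass. Hes1, the transcriptional repressor that is the classic Notch target, was at 0.540, 0.362 and 0.663 FPKM without and 2.58, 1.77 and 1.84 FPKM with DL1. The groups did not overlap, and the rise was 1.0 on the log2 scale (SE 0.122, adjusted p = 5.13e-05). Tcf7, which encodes the T cell factor TCF-1, rose from 5.32, 2.93 and 3.30 to 44.4, 25.7 and 28.5 FPKM (log2 fold change 2.80, SE 0.251). Ccnd1, encoding cyclin D1, rose from 19.9, 17.6 and 18.3 to 40.8, 34.8 and 34.6 FPKM (log2 fold change 0.94, SE 0.0747). Nrarp, a feedback inhibitor that Notch induces, was at 1.06, 1.93 and 1.70 without and 2.19, 2.16 and 3.08 FPKM with DL1 (log2 fold change 0.45, adjusted p = 0.0160), and this call was lost without irradiated replicate 1 or without replicate 3 with DL1. The 3 that fell were Dtx4 at -0.59, Notch1, and Igf1r at -0.58. Myc, Dtx3 and Cdkn1a did not pass.

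A further 11 listed targets were below the limit and were not tested. Dtx1, a Notch target and regulator in lymphocytes, was listed at 0, 0 and 0.0204 FPKM without and 0.563, 0.259 and 0.388 with DL1. Gata3, the zinc finger factor needed for T cell commitment, was at 0.151, 0.146 and 0.321 without and 2.20, 1.20 and 1.59 with DL1. Hey1 was at 0.0555, 0.0428 and 0.0588 without and 0.210, 0.169 and 0.110 with DL1. In these 3 genes, and also in Trib2, Ptcra and Notch3, every library with DL1 was above every library without it. Among the 12028 genes tested 28.5% were higher in this way, a share that does not cover genes below the limit. Hes5 did not share this order, with 0.195, 0.226 and 0.518 without and 0.246, 0.119 and 0.166 with DL1. Il2ra stood at 0.396, 0.174 and 0.290 without and 0.537, 0.512 and 0.379 with DL1, with the groups overlapping.

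**Figure D1:**
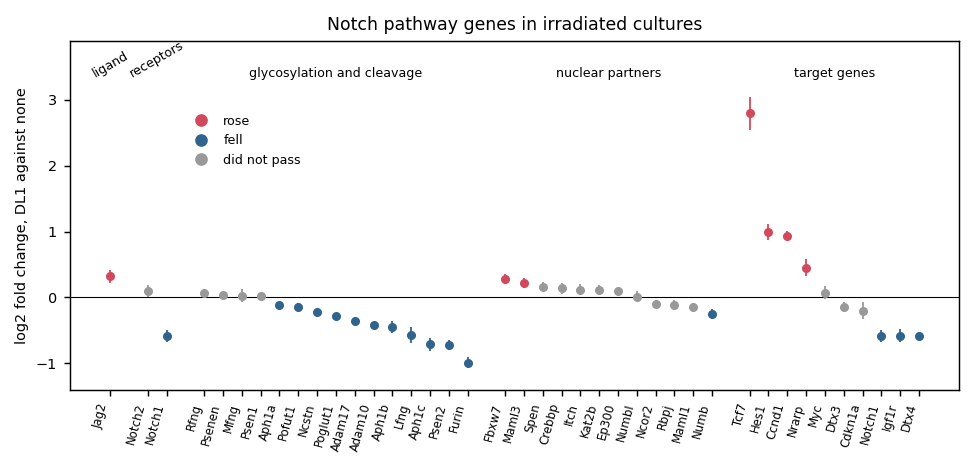
Log2 fold changes of the tested Notch pathway genes, DL1 against none in irradiated cultures (n = 3 each), in the order ligand, receptors, glycosylation and cleavage, nuclear partners and targets; points are estimates and bars are standard errors from limma. Tcf7 (2.80), Hes1 (1.0) and Ccnd1 (0.94) lie highest, and 11 of 15 glycosylation and cleavage genes lie below 0 with a call.

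In order of size, the 15 largest rises were Mcpt1, Gzmc, Itgax, Cd7, Asb2, Mcpt2, Adgrg5, Apol7c, Cdh1, Tcf7, LOC100504495, Hic1, Ccl5, Plet1 and Itgae, with log2 fold changes from 5.0 to 2.67. Itgax, the dendritic cell integrin CD11c, went from 4.50, 2.34 and 1.90 to 43.1, 31.5 and 30.6 FPKM (log2 fold change 3.24, SE 0.216). Cd7, a surface protein of early T and NK cells, went from 5.62, 2.82 and 1.68 to 45.9, 32.6 and 32.6 FPKM (log2 fold change 3.20, SE 0.271). Itgae, the αE integrin of intraepithelial T cells, went from 1.16, 0.415 and 0.370 to 13.9, 7.95 and 7.17 FPKM, and Cdh1, which encodes its partner E-cadherin, from 7.44, 3.07 and 2.26 to 50.8, 31.5 and 28.6 FPKM. In these 4 genes irradiated replicate 1 was the highest library of each irradiated group, without and with DL1. Asb2, a subunit of a ubiquitin ligase that Notch is known to induce, went from 1.15, 0.279 and 0.384 to 14.6, 11.3 and 10.7 FPKM (log2 fold change 3.07, SE 0.182). Hic1, a transcriptional repressor, went from 2.47, 1.64 and 1.60 to 20.1, 15.5 and 19.0 FPKM (log2 fold change 2.73, SE 0.167).

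**Figure D2:**
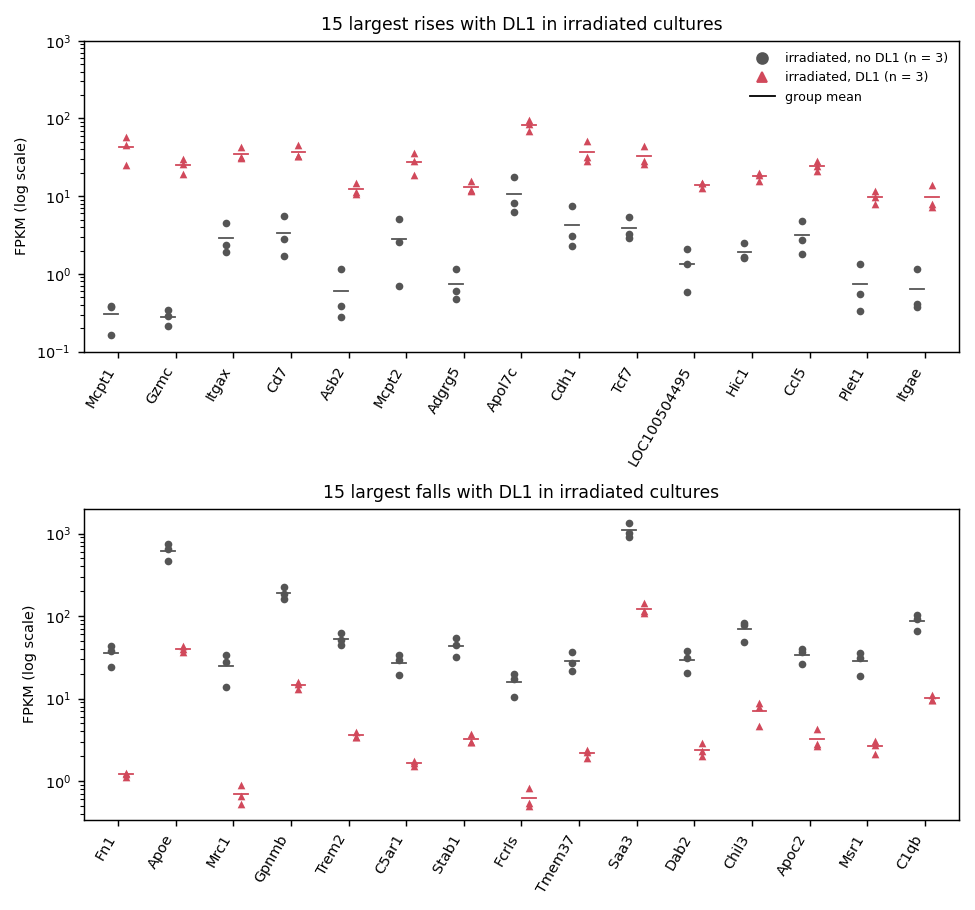
FPKM (log axis) of the 15 genes with the largest rise (top) and the 15 with the largest fall (bottom) with DL1 in irradiated cultures; each point is a library (n = 3 per group) and each line a group mean. Mcpt1 goes from a mean of 0.309 to 43.0 and Fn1 from 35.2 to 1.20, and in none of the 30 genes do the groups overlap, as the rule for choosing them required.

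Mcpt1, Mcpt2 and Gzmc lie in a single cluster of serine protease genes. In the order of the RefSeq gene table of GRCm38.p6 the cluster holds 16 genes: Cma1, Mcpt-ps1, Cma2, Mcpt1, Mcpt2, Mcpt9, Mcpt4, Mcpt8, Ctsg, Gzme, Gzmd, Gzmg, Gzmn, Gzmf, Gzmc and Gzmb. The cluster was chosen after its values were seen. Of the 8 genes that reached the limit, 5 rose and 2 fell, against 24.3 and 17.2% of all genes tested, but Mcpt1 and Gzmc reached it only through the cultures with DL1. The chymase Mcpt1 went from 0.163, 0.376 and 0.388 to 45.9, 58.0 and 25.2 FPKM (log2 fold change 5.0, SE 0.670, adjusted p = 0.000111), Mcpt2 from 5.10, 0.699 and 2.56 to 28.6, 36.2 and 18.6 FPKM (3.06, SE 0.667), and Mcpt4 from 1.86, 0.0489 and 2.33 to 12.1, 7.37 and 6.03 FPKM (2.09, SE 0.620, adjusted p = 0.0182). The spread between libraries was wide for these 3 genes, and the call of Mcpt4 was lost without irradiated replicate 2 or without replicate 1 with DL1. At the other end of the cluster, Gzmc went from 0.211, 0.348 and 0.286 to 29.9, 19.4 and 25.8 FPKM (4.32, SE 0.140) and Gzmb, the main death-inducing granzyme of killer cells, from 1.34, 1.48 and 1.51 to 13.8, 15.1 and 13.9 FPKM (2.64, SE 0.0758, adjusted p = 1.92e-09).

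Between these ends lay the 2 genes that fell, both strongly expressed in myeloid progenitors. Mcpt8, a protease of basophils, was at 66.6, 91.3 and 94.7 FPKM without and 53.5, 69.4 and 64.2 FPKM with DL1 (log2 fold change -0.42, adjusted p = 0.0253), with the groups overlapping. Its call was lost without irradiated replicate 2 or 3 or without replicate 1 with DL1. Ctsg, the neutrophil protease cathepsin G, fell from 1110, 1288 and 1141 to 727, 806 and 660 FPKM (log2 fold change -0.69, SE 0.0959). Below the limit, Gzme was at 0.0152, 0 and 0 without and 0.436, 0.297 and 0.388 with DL1, and Gzmg at 0.0154, 0.0178 and 0 without and 0.324, 0.339 and 0.283 with DL1. Gzmn was listed at 0 in all 6 libraries and Gzmf likewise. The mast cell proteases and the granzymes are families of similar sequence, and how the authors assigned reads that fit several copies is not given in the sources used here, so the division of signal among Mcpt1, Mcpt2 and Mcpt4 and among the granzymes is uncertain.

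**Figure D3:**
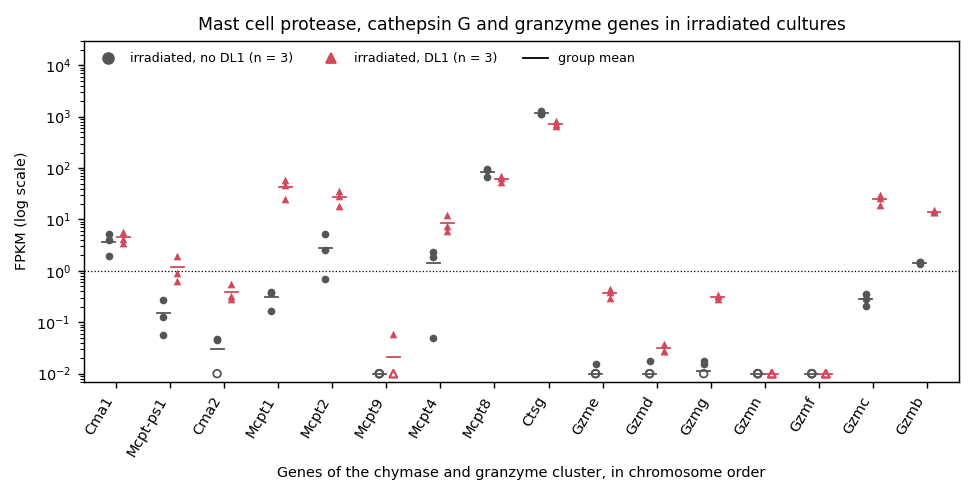
FPKM (log axis) of the 16 genes of the chymase and granzyme cluster in chromosome order, irradiated cultures without and with DL1 (n = 3 each); points are libraries, lines are group means, open symbols at the lower edge are values under 0.01, and the dotted line marks 1 FPKM. Mcpt1, Mcpt2, Mcpt4, Gzmc and Gzmb rise while Mcpt8 and Ctsg, at the centre, fall.

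The promoters of 6 of these genes are printed because neighbouring genes of one cluster went opposite ways. They are the 200 bases before the RefSeq start in GRCm38.p6, 5′ to 3′ on the strand of the gene, with capitals for TGGGAA, the core bound by RBPJ, and TGTGGT, bound by RUNX factors, on either strand. Mcpt1 lies on the plus strand with its window at chr14:56017764-56017963, and the others on the minus strand with windows at chr14:56062311-56062510 (Mcpt4), chr14:56234658-56234857 (Gzmc), chr14:56262335-56262534 (Gzmb), chr14:56085198-56085397 (Mcpt8) and chr14:56102575-56102774 (Ctsg).
Mcpt1, rose: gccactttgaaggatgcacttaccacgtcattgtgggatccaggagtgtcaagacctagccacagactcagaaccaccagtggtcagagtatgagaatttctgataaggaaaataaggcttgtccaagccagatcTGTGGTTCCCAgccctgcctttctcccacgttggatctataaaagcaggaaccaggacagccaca
Mcpt4, rose: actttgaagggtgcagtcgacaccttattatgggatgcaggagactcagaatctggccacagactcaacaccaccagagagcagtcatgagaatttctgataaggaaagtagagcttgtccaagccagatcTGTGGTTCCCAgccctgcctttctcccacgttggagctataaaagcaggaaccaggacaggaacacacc
Gzmc, rose: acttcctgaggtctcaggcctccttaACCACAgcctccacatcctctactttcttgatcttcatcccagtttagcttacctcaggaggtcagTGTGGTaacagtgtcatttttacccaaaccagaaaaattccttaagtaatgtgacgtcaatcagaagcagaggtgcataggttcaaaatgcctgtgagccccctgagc
Gzmb, rose: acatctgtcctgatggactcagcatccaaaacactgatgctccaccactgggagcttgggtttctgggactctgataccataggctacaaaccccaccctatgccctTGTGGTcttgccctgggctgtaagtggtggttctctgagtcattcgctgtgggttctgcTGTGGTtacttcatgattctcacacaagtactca
Mcpt8, fell: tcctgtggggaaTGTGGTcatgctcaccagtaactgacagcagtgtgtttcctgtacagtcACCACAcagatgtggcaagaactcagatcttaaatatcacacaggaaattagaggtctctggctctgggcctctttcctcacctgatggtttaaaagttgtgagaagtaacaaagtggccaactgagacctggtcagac
Ctsg, fell: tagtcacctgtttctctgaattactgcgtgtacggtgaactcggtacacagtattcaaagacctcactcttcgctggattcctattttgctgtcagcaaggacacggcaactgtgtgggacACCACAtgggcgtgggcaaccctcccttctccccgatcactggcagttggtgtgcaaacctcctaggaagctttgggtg

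In Mcpt1 and Mcpt4 a TGTGGT on the gene's strand and a TGGGAA on the other strand overlap by 1 base, beginning 65 bases before the start in Mcpt1 and 69 in Mcpt4. None of the other promoters of the cluster in the table held TGGGAA, whereas TGTGGT was found in those of both rising and falling genes. Of the 13 cluster genes with a promoter in the table, 10 held TGTGGT and 2 held TGGGAA, and among all 32851 promoters of the table, over the same 200 bases, 11.2 and 17.3% held them. The 10 are not separate cases. The promoters of Gzmc, Gzmd, Gzme, Gzmf and Gzmg are alike in sequence and share their matches, as do those of Mcpt1 and Mcpt4. The cluster counts therefore cannot be read against the shares of all promoters. A match is a description of the letters and not a binding site. In whole windows of 300 bases, GTGGGAA was found in 0 of the 5 tested Notch targets that the table holds and in 6.38% of all promoters. The other targets of the 10 tested had no promoter there, and 5 promoters are too few to set against that share.

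Of 19 listed cytotoxic and NK genes 7 reached the limit, and 5 of these rose: Gzmb and Gzmc of the cluster, and Ccl5, Klrd1 and Gzma outside it. Ccl5, a chemokine of activated T cells, went from 4.86, 2.76 and 1.83 to 24.7, 21.0 and 28.6 FPKM, and Klrd1, the NK receptor chain CD94, from 3.40, 2.0 and 1.70 to 15.8, 11.6 and 12.4 FPKM (log2 fold change 2.11, SE 0.222). Gzma was listed at 0 in all 3 libraries without DL1 and at 7.30, 1.94 and 2.82 with it. Srgn, the proteoglycan that packs granules in many blood cells, fell from 794, 888 and 742 to 620, 640 and 561 FPKM. The other 12 genes were below the limit, and those named here were chosen after their values were seen. Prf1 (perforin) was at most 0.0751 FPKM and Ncr1 was listed at 0 in all 6 libraries. Tbx21, which encodes the transcription factor T-bet, was at 0.0478, 0.0737 and 0.0169 FPKM without and 0.647, 0.496 and 0.596 with DL1, and Klrk1, the NK receptor NKG2D, at 0.181, 0.0593 and 0.0612 without and 0.582, 0.565 and 0.371 with DL1, both without overlap. The summed level of the 19 genes was 791 to 956 FPKM without and 689 to 764 FPKM with DL1. Srgn, at the levels given above, made up most of this sum in both groups, so the sum says little about the other genes of the list.

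Of 28 early T lineage genes 10 reached the limit, and 5 rose and 3 fell. Besides Cd7 and Tcf7, the rises were Tox, a nuclear factor of developing T cells, from 0.0427, 0.0493 and 0.0603 to 2.78, 1.3 and 1.91 FPKM, the kinase Lck at 0.56 and the adaptor Lat at 0.48 on the log2 scale. Cd28, the costimulatory receptor of T cells, fell from 12.3, 10.1 and 8.72 to 1.55, 2.04 and 1.74 FPKM (log2 fold change -2.03, SE 0.127), and Thy1 from 13.9, 14.2 and 14.2 to 3.04, 4.55 and 3.58 FPKM (-1.69, SE 0.141). Il7r, the receptor for interleukin-7, fell by 0.87 on the log2 scale. The 3 genes that fell all encode surface proteins, while those that rose include the surface protein gene Cd7 as well as nuclear and signalling genes. Of the genes below the limit, Cd3g was at 0.0409, 0.0473 and 0 without and 1.31, 1.12 and 1.11 FPKM with DL1 and Bcl11b, the factor of T cell commitment, at most 0.0382 FPKM, while Rag1 was listed at 0 in all 6 libraries. The sum over the 28 genes was 53.2 to 59.5 FPKM without and 95.7 to 131 FPKM with DL1. Cd7 and Tcf7, at the levels given above, made up most of the sum with DL1 but not of the sum without it. The rise of the sum therefore says little about the other genes of the list.

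Lymphoid priming genes, which mark multipotent progenitors on the way to lymphocytes, rose with few exceptions among those tested. Of 12 tested genes 10 rose and 2 fell, with a median log2 fold change of 0.49. Flt3, the receptor for one of the culture cytokines and a mark of lymphoid-primed progenitors, went from 7.27, 4.78 and 6.64 to 25.2, 20.8 and 23.9 FPKM (log2 fold change 1.76, SE 0.131, adjusted p = 1.51e-06). Satb1, a chromatin organiser, went from 2.69, 2.12 and 2.52 to 7.38, 7.27 and 8.09 FPKM (1.32, SE 0.0861), and Bcl11a, a lymphoid transcription factor, from 5.02, 5.57 and 6.97 to 15.1, 12.4 and 17.9 FPKM (1.23, SE 0.121). The groups did not overlap in any of these 3 genes. Il7r was among the 2 that fell. The 3 tested Gimap genes, small GTPases of lymphocytes, rose, led by Gimap1 from 2.74, 4.08 and 4.67 to 7.39, 6.61 and 8.48 FPKM (0.83, SE 0.130). Of 10 B lineage genes 9 were below the limit, at most 0.838 FPKM, with Ebf1 and Pax5 listed at 0 in all 6 libraries. The 1 tested gene, Cd79b, rose by 0.40 and made up most of the sum of the list. That sum was 9.96 to 12.3 FPKM without and 14.3 to 15.5 FPKM with DL1.

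Dendritic cell genes rose. Of 8 tested members 7 rose and none fell, with a median of 0.98 on the log2 scale. Ccl22, a chemokine of activated dendritic cells, went from 3.94, 2.35 and 1.85 to 16.9, 17.0 and 14.0 FPKM (log2 fold change 2.23, SE 0.217), and Batf3, the factor of cross-presenting dendritic cells, from 1.44, 1.53 and 1.08 to 5.84, 6.38 and 4.44 FPKM (1.47, SE 0.204). Ccr7, the receptor that guides dendritic cells and T cells to lymph nodes, went from 7.27, 3.49 and 3.84 to 12.8, 14.3 and 15.2 FPKM (1.42, SE 0.217). The remaining calls were Itgax, Bst2, Tcf4 and Cd83. Clec9a and Xcr1, markers of the same dendritic cell subset as Batf3, were below the limit, at most 0.0832 and 0.342 FPKM. The sum of the 15 listed genes was 159 to 218 FPKM without and 261 to 318 FPKM with DL1.

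Genes of the MHC class II pathway were higher in part, and the count rested on single libraries. Of 10 tested genes 4 rose: H2-Oa, Ciita, H2-DMb2 and H2-Ob. Ciita, the master activator of the pathway, was at 13, 6.73 and 5.68 FPKM without and 23.8, 18.5 and 16.4 FPKM with DL1 (log2 fold change 1.18, SE 0.248, adjusted p = 0.00265). Among the genes that did not pass, H2-Aa was at 354, 173 and 189 without and 357, 306 and 269 with DL1 (limma, adjusted p = 0.169). Cd74, also among them, was at 988, 557 and 572 without and 792, 695 and 647 with DL1 (limma, adjusted p = 0.844). Irradiated replicate 1 stood above the other irradiated libraries without DL1 in all 3 of these genes. Without it 9 of the 10 genes rose, without replicate 1 with DL1 2 rose, and with a block for the replicate number within irradiated and within control cultures 7 rose.

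Macrophage and monocyte genes gave the strongest fall. Of 27 listed genes 23 reached the limit and each of these 23 fell, by a median of -2.01 on the log2 scale. Apoe, the lipid carrier that macrophages secrete, went from 746, 649 and 459 to 36.8, 39.7 and 43.8 FPKM (log2 fold change -3.89, SE 0.181, adjusted p = 9.98e-08). Trem2, a lipid-sensing receptor of macrophages, went from 61.8, 50.8 and 44.7 to 3.40, 3.93 and 3.42 FPKM (-3.53, SE 0.186), and Csf1r, the receptor for the macrophage growth factor, from 297, 218 and 199 to 82.3, 86.0 and 79.4 FPKM (-1.50, SE 0.166). Levels without DL1 were spread more widely than with it in these genes, with irradiated replicate 3 the lowest, and no library with DL1 came near it. The summed level of the list was 2473 to 3808 FPKM without and 785 to 930 FPKM with DL1.

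Of the 15 largest falls of all genes, 7 were of genes on this list. The 15 were Fn1, Apoe, Mrc1, Gpnmb, Trem2, C5ar1, Stab1, Fcrls, Tmem37, Saa3, Dab2, Chil3, Apoc2, Msr1 and C1qb, with log2 fold changes from -4.0 to -2.95. Fn1, the matrix protein fibronectin, went from 43.9, 37.7 and 24.0 to 1.11, 1.27 and 1.23 FPKM (-4.0, SE 0.174, adjusted p = 6.95e-08). The mannose receptor Mrc1 went from 33.6, 27.6 and 14.0 to 0.887, 0.666 and 0.534 FPKM, and the scavenger receptor Msr1 from 35.4, 30.9 and 18.6 to 2.72, 3.07 and 2.14 FPKM. C1qb, a chain of the first complement component, went from 102, 92.9 and 65.3 to 11.1, 9.66 and 9.69 FPKM. Saa3, an acute-phase protein made by macrophages, was the most abundant of the 15, at 1346, 1022 and 905 FPKM without and 110, 143 and 115 FPKM with DL1 (-3.14, SE 0.229). The resident macrophage markers Marco and Timd4 were listed at 0 in the libraries without DL1.

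Lysosomal genes fell together with them. Of 20 tested genes 18 fell and none rose, with a median of -0.90. The cathepsin gene Ctsl went from 237, 208 and 153 to 48.8, 46.8 and 45.4 FPKM (log2 fold change -2.04, SE 0.140), Ctsd from 522, 452 and 387 to 179, 185 and 180 FPKM (-1.31, SE 0.0961), and Psap, the precursor of the saposins that help digest sphingolipids, from 1535, 1202 and 1065 to 389, 412 and 370 FPKM (-1.68, SE 0.147). The groups were clearly apart in each. Of 11 tested chemokine and chemokine receptor genes 8 fell, 1 rose and 2 did not pass. The chemokine gene Ccl6 went from 47.0, 35.2 and 29.8 to 13.5, 13.8 and 12.7 FPKM (-1.39, SE 0.180). Cxcr2, the neutrophil receptor, was the exception, from 6.81, 8.37 and 6.32 to 12.9, 12.4 and 12.6 FPKM (0.75, SE 0.0885).

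Cebpa, the gene of C/EBPα, fell with DL1. It was at 73.1, 79.8 and 76.8 FPKM without and 50.1, 57.6 and 65.9 FPKM with DL1, without overlap, a fall of 0.41 on the log2 scale (SE 0.0831, adjusted p = 0.00226). It was the only one of 7 C/EBP genes to pass. Cebpb, which takes over in emergency granulocyte production, was at 33.2, 31.1 and 27.7 without and 20.7, 23.4 and 52.2 with DL1, so that replicate 3 with DL1 was the highest and the other two the lowest of the 6 libraries (adjusted p = 0.873). Without that library Cebpb passed, with a log2 fold change of -0.46, and 3 of the 7 genes fell, and without irradiated replicate 3 of the cultures without DL1, 2 fell and 1 rose. With the block for the replicate number within irradiated and within control cultures, 2 fell. Cebpe, needed for late granulocytes, was at 32.2, 37.7 and 26.7 without and 29.3, 30.3 and 20.1 with DL1 (adjusted p = 0.137), and Cebpd at 23.1, 21.1 and 21.4 without and 16.3, 18 and 21.9 with DL1 (adjusted p = 0.0726).

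Other myeloid regulators and their granule genes were lower with DL1. Of 15 myeloid transcription factors and receptors 9 fell and 2 rose, Irf4 and Spi1. Gfi1, a repressor that favours granulocytes over monocytes, went from 42.9, 50.8 and 39.3 to 24.9, 26.7 and 22 FPKM (log2 fold change -0.82, SE 0.102). Csf3r, the receptor for granulocyte colony-stimulating factor, went from 87.8, 81.7 and 78.8 to 48.5, 59.5 and 48.2 FPKM (-0.66, SE 0.0919). Spi1, the gene of PU.1, was higher by only 0.20, from 186, 159 and 175 to 200, 198 and 196 FPKM (adjusted p = 0.0238). The calls of Irf4 and Spi1 together became 1 without irradiated replicate 2 or without replicate 1 or 2 with DL1.

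Of 11 tested azurophil granule genes, made at the promyelocyte stage, 9 fell and none rose, with a median of -0.50. Mpo, myeloperoxidase, went from 2726, 3218 and 2646 to 1719, 1814 and 1564 FPKM (log2 fold change -0.75, SE 0.0996), and Elane, neutrophil elastase, from 1205, 1465 and 1032 to 709, 767 and 542 FPKM (-0.87, SE 0.142). The lysozyme genes Lyz2 and Lyz1, which monocytes and macrophages share, fell most, Lyz2 from 4548, 3635 and 3073 to 725, 909 and 669 FPKM (-2.28, SE 0.183). Of 11 tested late neutrophil genes 10 fell and 1, Cxcr2, rose, with a median of -0.86. Ltf, lactoferrin of the specific granules, went from 8.62, 11.6 and 5.39 to 1.38, 1.09 and 0.942 FPKM (-2.11, SE 0.184), and Lcn2, an iron-binding protein of the same granules, from 156, 144 and 158 to 88.7, 92.1 and 84.1 FPKM (-0.78, SE 0.0550). The sums of the azurophil list were 12502 to 14699 FPKM without and 6995 to 8315 FPKM with DL1.

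Megakaryocyte genes went both ways. Of 11 tested genes 6 fell and 2 rose. The platelet chemokine genes fell, Pf4 from 201, 186 and 145 to 43.1, 47.5 and 61.2 FPKM (log2 fold change -1.79, SE 0.144) and Ppbp from 59.9, 55.3 and 38.3 to 9.09, 7.58 and 11.5 FPKM (-2.32, SE 0.197). Vwf, the von Willebrand factor gene, went from 2.83, 2.09 and 1.57 to 0.219, 0.375 and 0.255 FPKM (-1.28, SE 0.131). In contrast, both chains of the platelet fibrinogen receptor rose: Itga2b from 10.9, 11.2 and 11.1 to 26.4, 19.9 and 23.6 FPKM (1.0, SE 0.0989) and Itgb3 from 5.44, 5.96 and 6.88 to 10, 10.3 and 11 FPKM (0.70, SE 0.0779). The sum of the list was 346 to 406 FPKM without and 194 to 229 FPKM with DL1.

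Of 13 tested mast cell, basophil and eosinophil genes 5 fell and 2 rose, and the 2 rises were the mast cell proteases Mcpt4 and Cpa3. Cpa3, mast cell carboxypeptidase, went from 31.5, 30.2 and 28.9 to 52.7, 57.9 and 44.4 FPKM (log2 fold change 0.75, SE 0.228, adjusted p = 0.0208). Neither rise held without irradiated replicate 2 or without replicate 1 with DL1, 1 of them held without replicate 2 with DL1, and 3 of the falls held without irradiated replicate 2. The falls were Cd63, Prg2, Gata2, Prss34 and Mcpt8. Prg2, the eosinophil major basic protein, went from 7.77, 8.63 and 3.05 to 2.24, 0.925 and 0.386 FPKM (-1.77, SE 0.353), and Gata2, a factor of stem cells and mast cells, from 12.5, 15.9 and 17.2 to 9.41, 10.6 and 12.3 FPKM (-0.45, SE 0.112). The cytokine gene Il13 was listed at 0 in all 6 libraries, and the sums of the list were 398 to 429 FPKM without and 291 to 320 FPKM with DL1. Cd63 made up a large part of these sums, at 247, 241 and 214 FPKM without and 134, 139 and 133 with DL1. Mcpt1 and Mcpt2, which rose, are not on this list.

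Of 18 erythroid genes 15 had values in the cultures, and Hbb-b2, Hbb-bt and Hbb-bs were missing under these names. Most of the 15 were under the limit, with 5 tested. Of these 2 rose (Tfrc at 0.51 and Car2 at 0.28) and 2 fell (Hbb-b1 at -1.35 and Gata1 at -0.32). Leaving out irradiated replicate 2, or replicate 3 with DL1, left 1 rise, and leaving out irradiated replicate 3 or any of the 3 replicates with DL1 left 1 fall. Slc4a1, the red cell anion exchanger, was listed at 0 in all 6 libraries. Reads of Hbb-b1 may be shared with similar globin genes.

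Genes that maintain stem cells fell more often than they rose. Of 19 tested stem cell regulators 11 fell and 3 rose, with a median of -0.27. Hoxa9, a homeobox gene of self-renewing cells, went from 6.82, 9.00 and 10.9 to 2.05, 3.25 and 3.72 FPKM (log2 fold change -1.31, SE 0.167, adjusted p = 7.52e-05). Hlf, a factor specific to stem cells, went from 2.64, 3.41 and 3.09 to 1.21, 1.17 and 1.32 FPKM (-0.85, SE 0.0940), and Hmga2, a chromatin protein of fetal stem cells, from 2.19, 3.70 and 3.76 to 0.919, 1.23 and 1.24 FPKM (-0.97, SE 0.130). Mycn was the largest rise, from 0.454, 0.670 and 0.830 to 4.93, 3.18 and 4.52 FPKM (1.65, SE 0.171), beside Meis1 at 0.39 and Bmi1 at 0.20. Mecom, below the limit, was at 0.510, 0.600 and 0.608 without and 0.129, 0.217 and 0.116 FPKM with DL1. Of 10 tested surface genes of stem cells and progenitors 4 rose, Flt3, Ptk7, Cd34 and Slamf1, and Thy1 and Cd93 fell. Cd93 went from 47.5, 45.4 and 34.3 to 17.0, 17.6 and 16.9 FPKM (-1.24, SE 0.105), and Cd34 from 143, 157 and 179 to 196, 202 and 212 FPKM (0.35, SE 0.0675).

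Genes of cell division were higher with DL1 by small amounts. All 22 listed mitosis genes were tested and all rose, with a median of 0.36, and 21 of 23 DNA replication genes rose, with a median of 0.24, against 24.3% of all genes tested. Mki67, which encodes the proliferation antigen Ki-67, went from 51.1, 54.9 and 59.3 to 90.6, 94.8 and 89.8 FPKM (log2 fold change 0.73, SE 0.0707, adjusted p = 9.32e-06). Bub1b, a spindle checkpoint kinase, went from 35.7, 37.1 and 42.7 to 59.6, 55.0 and 61.3 FPKM (0.60, SE 0.0674), and Top2a, which untangles replicated DNA, from 114, 125 and 132 to 173, 164 and 177 FPKM (0.47, SE 0.0615). Tk1, thymidine kinase, rose most of the replication genes, from 44.6, 47.9 and 52.0 to 62.9, 61.0 and 63.7 FPKM (0.37, SE 0.0566). The replication count was smaller in a fit of the 6 irradiated libraries alone (10) and without irradiated replicate 1 (13). Of 15 G1 genes 8 rose, led by Ccnd1 and by Ccne1, cyclin E1, which went from 12.7, 14.0 and 14.9 to 25.0, 23.6 and 21.4 FPKM (0.71, SE 0.0708), and Cdk6 fell by 0.42. That fall did not pass without irradiated replicate 1, and 2 genes fell without irradiated replicate 3. Cdkn1a, the p53-induced inhibitor p21, was at 60.5, 46.7 and 64.2 without and 47.2, 48.0 and 52.9 with DL1 (adjusted p = 0.223).

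Interferon-induced genes rose in 8 of 16 tested and fell in none, with a median of 0.27. Usp18, which restrains interferon signalling, went from 2.47, 1.68 and 1.17 to 7.38, 5.05 and 6.29 FPKM (log2 fold change 1.4, SE 0.170), and Isg15 from 5.24, 3.25 and 2.98 to 8.75, 10.7 and 7.89 FPKM (1.09, SE 0.178). AP-1 and immediate early genes went down in 7 of 13 and up in 2. Fosl2 went from 18.7, 14.2 and 12.3 to 7.54, 7.63 and 7.55 FPKM (-0.89, SE 0.116) and Jun from 37.8, 28.5 and 25.3 to 17.9, 19.1 and 19.8 FPKM (-0.64, SE 0.158). The AP-1 falls numbered 4 without irradiated replicate 1 or without replicate 1 or 3 with DL1, and the rises 1 without irradiated replicate 2 or without replicate 3 with DL1. Of 17 p53 targets 3 rose and 4 fell, which is close to the shares among all genes tested (24.3 and 17.2%), among them Btg2, an inhibitor of proliferation, at 0.69 and the death receptor gene Fas at -0.93. Without irradiated replicate 1, or without replicate 3 with DL1, 2 fell.

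Counts among genes of growth and metabolism depended on single libraries. Of 21 oxidative phosphorylation genes 9 rose (Cox5a at 0.39), of 22 ribosomal protein genes 8 rose (Rpl3 at 0.19) and of 16 genes of the Myc network 4 rose and 1 fell (Mxd3 at 0.75, Mxi1 at -0.51). The rises of the Myc network were close to the share among all genes tested (24.3%). Median-ratio scaling left 5 rises in the first list and 0 in the second. Without irradiated replicate 1 the rises were 4, 0 and 2 in these lists. Without irradiated replicate 2 no ribosomal gene rose, and without irradiated replicate 3 the Myc list had 10 rises. Leaving out replicates 1, 2 and 3 with DL1 in turn left 5, 1 and 1 ribosomal rises, leaving out replicate 1 or 2 left 5 and 4 in oxidative phosphorylation, and leaving out replicate 3 left 2 in the Myc list. Of 16 glycolysis genes 1 rose, the glucose transporter gene Slc2a3 at 0.81, and 2 fell, Hk1 at -0.37 and Hk3 at -0.63. Without irradiated replicate 3, 2 rose, and 6 fell with median-ratio scaling.

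Of 5 receptors for the culture cytokines Flt3 rose and Il6ra, the interleukin-6 receptor, fell, from 28.6, 22.6 and 22.3 to 20.8, 17.4 and 17.7 FPKM (log2 fold change -0.37, SE 0.101), and without irradiated replicate 3 a further receptor fell. Of 13 JAK-STAT feedback and target genes 4 rose and 3 fell, not far from the shares among all genes tested (24.3 and 17.2%). Among them were Ptpn6, the phosphatase SHP-1, at 0.41 and the feedback inhibitor Cish at -0.52. Of 6 E protein and Id genes Tcf3 rose by 0.28, from 31.0, 32.6 and 35.1 to 39.3, 37.9 and 43.5 FPKM, and Tcf4 by 0.17. The call of Tcf4 was lost without irradiated replicate 2 or without replicate 1 or 3 with DL1, and 1 member fell without replicate 2 with DL1. Markers of stromal and endothelial cells, which the culture should not hold, were low with 2 exceptions: Pdgfrb went from 1.77, 1.45 and 1.96 to 6.20, 5.89 and 7.60 FPKM (1.47, SE 0.137), and Pecam1, which progenitors also express, from 39.2, 44.0 and 40.9 to 47.0, 45.2 and 44.5 FPKM (0.14). Of the 6 fits that each left out an irradiated library, Pecam1 passed only in the one without irradiated replicate 2. The collagen genes stood out in replicate 2 with DL1, the library of lowest depth: Col1a1 was at 2.82 FPKM there and at most 0.197 in the other 5 libraries, and Col1a2 at 3.34 against at most 0.170. The sum of the 11 markers was 43.1 to 47.0 FPKM without and 53.1 to 59.8 FPKM with DL1, and its part in the other results was not tested.

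**Figure D4:**
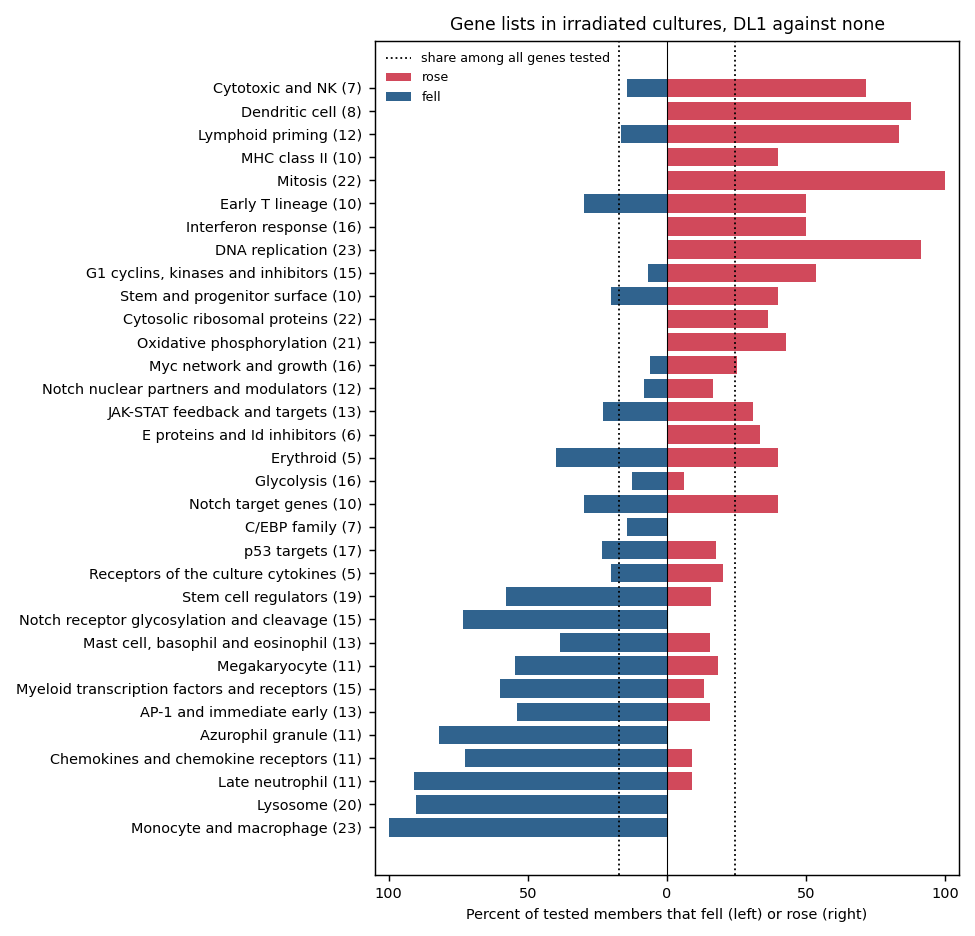
Share of tested members of each gene list (number tested in brackets, lists of 5 or more) that rose (right) or fell (left) with DL1 in irradiated cultures, in the order of the list medians; dotted lines are the shares among all 12028 genes, 24.3% higher and 17.2% lower. All 22 mitosis genes rose and all 23 tested monocyte and macrophage genes fell.

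The response in control cultures, which share no library with the irradiated ones, overlapped with theirs in part. In them 3155 of the 12028 genes (26.2%) passed, 1667 (13.9%) higher and 1488 (12.4%) lower. Of the genes that rose in irradiated cultures 1272 also rose in control cultures, which is 43.5% of the first and 76.3% of the second set. Of those that fell 1298 did so in both, 62.9 and 87.2% of the sets, while 3 genes rose in irradiated and fell in control cultures and 3 did the reverse. Across genes, the log2 fold changes of both comparisons had a Pearson r of 0.902 and a Spearman rho of 0.784, given as a description since genes are not independent. The number of rises in control cultures moved with single libraries: it was 1067 without control replicate 1, and 1048 and 1109 without replicates 1 and 3 of the control cultures with DL1. Of the largest responses in irradiated cultures, Mcpt1 changed by 5.0 in irradiated and 5.61 in control cultures, Tcf7 by 2.80 and 2.87, and Apoe by -3.89 and -3.08. In control cultures 3 mitosis and 3 replication genes passed, with medians of 0.074 and 0.10, but no gene of either list passed the test of the difference between the responses.

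That test called 9 genes (0.0748%) at an adjusted p under 0.05 in limma, and 1262 (10.5%) had an unadjusted p under 0.05. In 6 genes (0.0499%) the response was more negative in irradiated cultures and in 3 (0.0249%) more positive. Pf4 fell in irradiated cultures as described, but was at 68.3, 58.6 and 79.8 FPKM in control cultures without and 76.9, 74.0 and 68.7 FPKM with DL1, a difference of -1.89 between the responses (adjusted p = 0.00935). Its level in irradiated cultures without DL1 was above all other libraries. Ppbp behaved alike, at 17.8, 12.3 and 19.9 without and 12.7, 14.7 and 16.9 FPKM with DL1 in control cultures (difference -2.17, adjusted p = 0.0140). Cd63, a tetraspanin of lysosomes and platelet granules, was at 247, 241 and 214 FPKM in irradiated cultures without DL1 and at 134, 139 and 133 with it, against 94.0, 91.1 and 98.6 without and 94.6, 88.0 and 108 with DL1 in control cultures (difference -0.81, adjusted p = 0.0140).

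Myl10, a myosin light chain, went opposite ways. It fell from 31.1, 37.4 and 32.1 to 19.9, 16.7 and 19.3 FPKM in irradiated cultures and rose from 6.51, 8.80 and 8.01 to 10.9, 11.9 and 15.4 FPKM in control cultures (difference -1.46, adjusted p = 0.0140). Gas6, the ligand of the receptors that recognise dying cells, fell in both, from 7.78, 6.67 and 5.12 to 0.207, 0.172 and 0.0533 FPKM in irradiated and from 1.33, 0.927 and 1.99 to 0.0288, 0.0516 and 0.0727 FPKM in control cultures. Its libraries with DL1 were close to 0 in both, so on this scale the larger fall (difference -1.53, adjusted p = 0.0315) went with the higher level without DL1. Sgsh, a lysosomal sulfatase, had a difference of -0.58 (adjusted p = 0.0421) and was named after its values were seen. Hpgd, which degrades prostaglandins, was at 1.03, 0.690 and 0.708 without and 2.44, 2.41 and 1.91 FPKM with DL1 in irradiated cultures, against 1.96, 1.81 and 2.60 without and 1.34, 1.73 and 1.59 with DL1 in control cultures (difference 1.13, adjusted p = 0.0315). Ap1m2 (difference 0.79, adjusted p = 0.0421) rose in irradiated and fell in control cultures. Aqp9, a channel for water and glycerol, rose in both, by 0.85 in irradiated and 0.39 in control cultures (adjusted p = 0.0400).

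The number of such genes depended on single libraries. It was 199 without irradiated replicate 3, and 5 and 0 without irradiated replicates 1 and 2. Without replicates 1, 2 and 3 of the irradiated cultures with DL1 it was 1, 0 and 4, without control replicates 1 and 2 it was 0 and 5, and without replicates 1, 2 and 3 of the control cultures with DL1 it was 4, 3 and 3. With a block for the replicate number within irradiated and within control cultures it was 19, of which 6 were among the 9, and with a block for the number over all 12 libraries it was 4, of which 3 were among them. Pf4, Ppbp and Myl10 passed with either block. Sgsh, Ap1m2 and Aqp9 passed with neither (adjusted p = 0.0748, 0.0748 and 0.0834 with the first, limma).

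**Figure D5:**
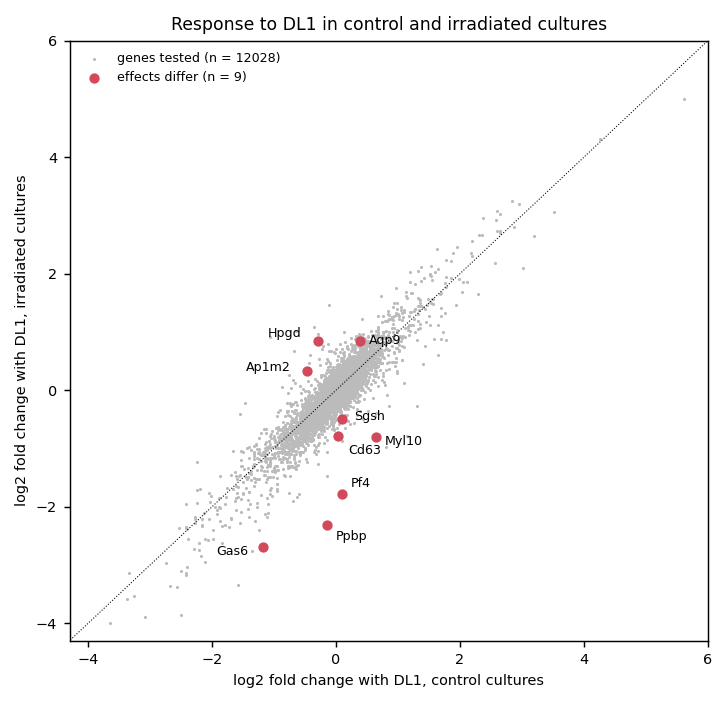
Log2 fold change with DL1 in control cultures (horizontal) against irradiated cultures (vertical) for the 12028 genes tested; each group has 3 libraries, the dotted line marks equal change, and the 9 larger points are the genes whose responses differed. Across genes r is 0.902, while Pf4 and Ppbp lie near 0 on the horizontal and at -1.79 and -2.32 on the vertical axis.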

How the data were processed

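RNA of cultured LSK cells was sequenced in 12 libraries, 3 in each of 4 groups. The authors deposited FPKM values per gene, and TopHat 1.4.1, Cufflinks 1.3.0 and Cuffdiff appear in the submitters' processing notes. These notes name hg19, a human build, although the mice and gene names are murine. No coordinates were taken from the files. Counts were not used here, so no interval from counts is given, and depth is known only relative to the first control library. Of the 25629 rows, 88.7% were matched to RefSeq names by symbol or synonym.

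Values were taken as log2(FPKM + 1) for the 12028 genes with a mean of at least 1 FPKM over the 6 irradiated libraries. All 12 libraries were fitted together with limma 3.58.1 (R 4.3.3, variance trend), with 1 mean per group. The contrasts tested were DL1 in irradiated cultures, DL1 in control cultures and their difference, with Benjamini-Hochberg adjustment over all genes and a threshold of 0.05. The fit was tested on simulated data. The p-values measure the spread between cultures of 1 mouse each.

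Residuals of irradiated cultures with the same replicate number correlated at 0.230, 0.145 and 0.347, and those with different numbers at -0.247 to 0.042, which meets the criterion set for pairing (every same-number value above 0.1). The main fit nevertheless had no block for the number. Fits with a block over all 12 libraries, and with one within irradiated and within control cultures that was added after seeing the data, are alternatives. In control cultures the same-number values were -0.041, -0.024 and 0.092. The labels do not state the pairing.

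Genes were named by rule: the 15 largest rises and 15 largest falls without overlap, the 4 smallest p-values of each gene list, a fixed set of Notch, C/EBP, stem cell and cycle genes, and the 5 largest differences in each direction. Members of the protease cluster outside this rule, Gzma, Rbpj, Itgam, Cd74, Cebpd, Sgsh and genes named to complete a count of a list were chosen after their values were seen. The members and the 38 lists were chosen with earlier results of these data known. Promoters are from RefSeq, GRCm38.p6. The table of freshly isolated cells was not used. Some members of the lists are counted but not reported here by name.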

Additional observations from a re-analysis of the deposited data

Results flagged for a closer look

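The change with DL1 differed between irradiated and control cultures in 9 genes by the test of the difference itself (limma, adjusted p under 0.05). The differences, irradiated minus control on the log2(FPKM + 1) scale, were -2.17 for Ppbp, -1.89 for Pf4, -1.53 for Gas6, -1.46 for Myl10, -0.81 for Cd63, -0.58 for Sgsh, 0.46 for Aqp9, 0.79 for Ap1m2 and 1.13 for Hpgd. All 9 genes also passed the test of DL1 in irradiated cultures. Of these, Gas6 reached the limit of 1 FPKM only through the irradiated cultures without DL1, and Ap1m2 and Hpgd only through those with it. The calls of these genes in irradiated cultures follow in part from the limit. With a block for the replicate number within irradiated and within control cultures, Sgsh, Ap1m2 and Aqp9 no longer passed (adjusted p = 0.0748, 0.0748 and 0.0834). Groups of 3 libraries are too small for a test of single outlying libraries.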

How the results depend on the processing

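The number of genes that passed in irradiated cultures was 3564 in a fit of the groups compared only, 5454 without a filter on low values, 4948 with a replicate block over 12 libraries and between 3883 and 6021 when 1 library was left out. Of these alternatives, only the fit of the groups compared moved the rises by over 1.5 times, to 1876. In control cultures the total was 4699 with array weights, with 2757 rises, and the rises were between 1048 and 1577 when 1 library was left out. The difference between the responses was the least stable result. Its count was 18 with a pseudocount of 5 (15 more negative), 3 without a filter (0 more positive, 3 more negative), 5 with a minimum mean of 5 FPKM (1 more positive), 4 with the replicate block (0 more positive) and 33 with array weights (10 more positive, 23 more negative). When 1 library was left out it ran from 0 to 199, with 0 to 102 more positive and 0 to 97 more negative. The replicate block within irradiated and within control cultures, added after seeing the data, gave 5111 genes in irradiated cultures and 19 differences (6 more positive, 13 more negative), and median centring, also added then, gave 4918 and 7. Leaving out 1 library changed the sign of 4 genes that had not passed: Notch2 ran from -0.009 (without irradiated replicate 3) to 0.21, Kit from -0.11 to 0.009 (without replicate 2 with DL1), Cma1 from -0.025 (without irradiated replicate 2) to 0.50, and Cebpb from -0.46 to 0.003 without irradiated replicate 1 and to 0.19 and 0.10 without replicates 1 and 2 with DL1. Of 156 named genes that passed, 136 did so under every alternative in which they were tested, 20 lost the call under at least 1 and 0 changed sign. The cause of these changes was not tested. The lowest depth, in replicate 2 with DL1, limits the precision of weakly expressed genes.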

Other observations

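Several gene families that are not lists of their own were examined after their values had been seen, and their counts are a description that supports no statement about a family. Some members, such as Fcgr1, Fcgr3 and Fcer1g, are also counted in the lists above. Among all genes tested 24.3% rose and 17.2% fell. Of 12 listed apolipoprotein L genes, 4 were tested and these rose in irradiated cultures with DL1, but Apol7a, Apol7e and Apol10b reached the limit only through the cultures with DL1. The fourth, Apol7c, went from 17.4, 8.22 and 6.22 to 96.2, 83.9 and 69.4 FPKM (log2 fold change 2.96, limma adjusted p = 9.32e-06). The CD300 receptors, immunoglobulin-like receptors of myeloid cells, went both ways, with 3 of 8 tested rising and 4 falling. Of these, Cd300c and Cd300e reached the limit only through the cultures with DL1, and Cd300ld4 only through those without it. Cd300e was at 1.11, 0.461 and 0.601 FPKM without and 6.44, 6.42 and 5.06 with DL1, whereas Cd300ld4 was at 8.97, 6.04 and 4.69 without and 1.0, 0.630 and 0.565 with DL1.

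Of 10 tested Toll-like receptor genes 8 fell, Tlr12 rose by 0.68 and Tlr9 did not pass (adjusted p = 0.633). All 6 tested genes grouped as Fc receptors for IgG fell, among them Fcer1g, which encodes a chain shared with the IgE receptor. Both tested formyl peptide receptor genes also fell. All 4 tested coagulation factor genes fell, among them F13a1 from 552, 482 and 360 to 91.3, 99.7 and 74.9 FPKM (log2 fold change -2.36), and all 3 tested syndecan genes fell, Sdc4 most, at -2.34. Of 6 tested genes of adherens junctions Cdh1, Jup and Epcam rose and Ctnnd1 fell by 0.20. Epcam, an epithelial adhesion protein, was at 0.178, 0.0229 and 0.105 FPKM without and 4.01, 2.61 and 2.59 with DL1. It reached the limit only through the cultures with DL1, and Tlr5 and Sdc1, counted above among the falls, only through those without it.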
